A study of Rattus norvegicus with 6 samples.

Results

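The miR-200 family and the miR-183 cluster belong to the microRNAs (miRNAs), small regulators that repress messenger RNAs, and are best known from epithelial and sensory cells. They were followed here in small RNA libraries from the medial prefrontal cortex of rats. The members were taken by name, as the annotated rows for rat miR-200a, miR-200b, miR-200c, miR-141, miR-429, miR-182, miR-183 and miR-96 of either arm that had a value in at least 1 library. The main ones are rno-miR-200a-3p, rno-miR-200b-3p, rno-miR-200c-3p, rno-miR-429, rno-miR-183-5p and rno-miR-182, written without the prefix rno for rat from here on. The 8 hairpins had 14 rows, of which 5 were blank in all libraries and 9 were members, among 502 annotated miRNAs with a value and 1465 rows in all. The blank rows were miR-141-5p, miR-183-3p, miR-200b-5p, miR-200c-5p and miR-96-3p.

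The CMS group held 3 rats exposed to chronic mild stress (CMS). In this depression model, restraint, foot shock, cold swimming, tail clipping, cage tilting, loss of food or water and reversed lighting came in random order for 4 weeks. The Control group held 3 rats that were handled and kept clean but otherwise left alone for the same 4 weeks. The sources used here name no strain, sex or age. The labels call the RNA of Control 3 polyA RNA and that of the other 5 libraries total RNA, although the extraction text names total RNA for all.

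The members of the miR-200 family repress Zeb1 and Zeb2, transcription factors that silence E-cadherin and other epithelial genes, and the family is known for holding epithelial cells in their state. In the nervous system it has been described in olfactory neurogenesis of mouse and zebrafish. The miR-183 cluster is transcribed as a unit in photoreceptors, hair cells and other sensory neurons, and mutations in the seed of human miR-96 cause hearing loss. Neither group counts among the abundant miRNAs of the cerebral cortex.

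Target choice by a miRNA depends mostly on its seed, bases 2 to 8 from the 5′ end, which is in capitals in the mature sequences that follow. They are shown because the seeds decide which members can be counted together. Mature entries of RefSeq (build GRCr8) were matched for 6 of the 9 members, all encoded on the minus strand, and those with a 3p seed of the miR-200 family or a seed of the miR-183 cluster were these.
miR-200c-3p: uAAUACUGccggguaaugaug
miR-141-3p: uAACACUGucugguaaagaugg
miR-183-5p: uAUGGCACugguagaauucacu
miR-96-5p: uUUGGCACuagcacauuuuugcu
miR-182: uUUGGCAAugguagaacucacaccg
The seeds of miR-200c-3p and miR-141-3p were identical at 6 of 7 bases, and the mature sequences at 17 of 21. Within the miR-183 cluster, miR-182 and miR-96-5p had the same bases 2 to 7, and miR-183-5p and miR-96-5p the same bases 3 to 8. Over the whole mature sequence, seed included, miR-182 was closer to miR-183-5p, with 18 of 22 bases identical, against 12 of 23 with miR-96-5p.

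Members without a mature entry were miR-200a-3p, miR-200b-3p and miR-429. Their hairpins are printed with the letters that equal a seed above in capitals, to show which seed each one holds.
Mir200b: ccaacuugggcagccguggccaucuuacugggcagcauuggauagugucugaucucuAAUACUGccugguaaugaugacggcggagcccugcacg
Mir429: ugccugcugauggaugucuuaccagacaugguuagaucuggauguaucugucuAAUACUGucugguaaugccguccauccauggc
Mir200a: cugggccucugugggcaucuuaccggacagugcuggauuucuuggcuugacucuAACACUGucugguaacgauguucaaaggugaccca
The hairpins of Mir200b and Mir429 each held AAUACUG, the letters of the miR-200c-3p seed, at 1 place. That of Mir200a held AACACUG, the letters of the miR-141-3p seed, at 1 place. Each of these 7-letter runs, searched on the hairpin's own strand, was present in 4 of the 419 rat hairpins listed (0.955%). The genes fall in 3 groups of neighbours in GRCr8. Mir200b, Mir200a and Mir429 lie on chromosome 5 within the span of Ttll10. Mir200c and Mir141 lie on chromosome 4 between Phb2 and Ptpn6. Mir183, Mir96 and Mir182 lie elsewhere on chromosome 4, between Nrf1 and Ube2h.

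Each library had 1 normalized value per miRNA, rounded by the authors to whole numbers, and these summed to 709674 to 736020 in CMS and 718554 to 736078 in Control. Values were present for 457 to 477 annotated miRNAs in CMS libraries, against 448 to 458 in Control libraries. The depth behind the values is unknown, so no counting interval or detection limit is given, and a 1 in the table can be any level that rounds to it. Neuronal miRNAs marked the tissue: miR-9a-5p was at 58633 to 76696 in CMS and 52742 to 59815 in Control, and miR-128-3p at 16153 to 28999 in CMS and 18158 to 54272 in Control.

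The members were scarce in this tissue. Their highest single value was 27, and miR-182, the most abundant, averaged 15 over the 6 libraries and stood at rank 323 of the 502 annotated miRNAs. After it came miR-200b-3p at 13.2 (rank 333), miR-200a-3p at 12.2 (rank 339), miR-183-5p at 9.0, miR-200c-3p at 2.83, miR-96-5p at 1.83 and miR-429 at 0.833. Neighbours in this order from miR-182 down to miR-183-5p differed by less than their SD within a group. Mature miRNAs are of nearly one length, so levels were compared without a length correction, but ligation and mapping can favour some sequences over others.

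None of the 7 members tested passed in the comparison of CMS with Control (limma, adjusted p over all miRNAs), and 2 of them, miR-200b-3p and miR-200c-3p, had an unadjusted p under 0.05. Among all 657 miRNAs tested, 27 passed (4.11%), 22 higher (3.35%) and 5 lower in CMS (0.761%), and 17.7% were higher in CMS at an unadjusted p under 0.05. The same pair, miR-200b-3p and miR-200c-3p, stood higher in all CMS than in all Control libraries, as did 19.6% of all tested miRNAs. No member was lower in this way, against 6.24% of all tested. With 7 members, 2 is near the number these shares give and is no result about the group. All 7 log2 differences were positive, with a median of 0.89, against a median of 0.08 and 56.5% positive over all tested miRNAs. The 7 include genomic neighbours measured in the same libraries, so they do not count as 7 separate observations. For miR-183-5p the means of both groups were equal. The signs of miR-183-5p and miR-429 changed when single libraries were left out.

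**Figure D1:**
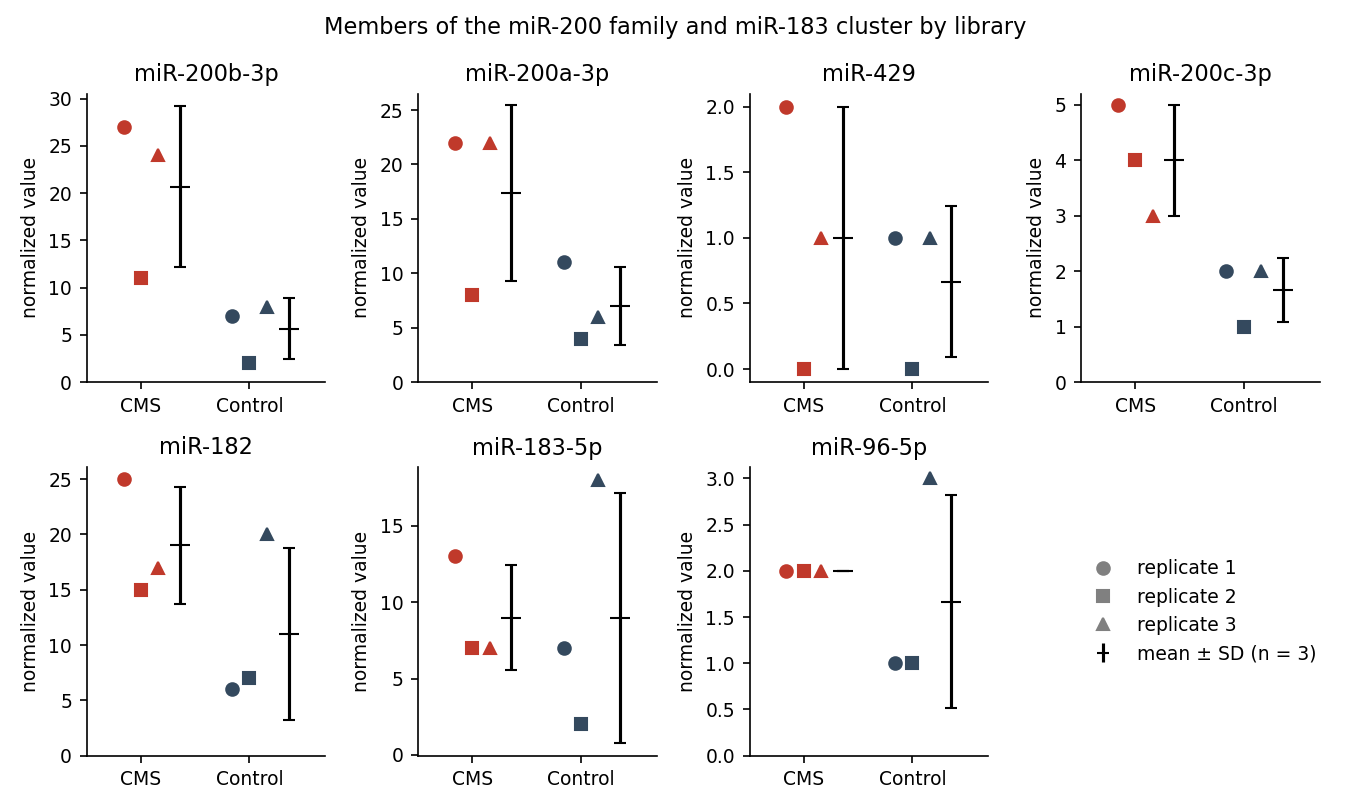
Normalized values of the 7 tested members in the 3 CMS and 3 Control libraries, with the mean and SD of each group. Vertical axes start at 0 or just below. Only for miR-200b-3p and miR-200c-3p do all 3 CMS points lie above all 3 Control points, and Control 3 is the highest library for miR-183-5p and miR-96-5p.

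Within the chromosome 5 cluster, miR-200b-3p had values of 27, 11 and 24 in CMS 1, 2 and 3, against 7, 2 and 8 in Control 1, 2 and 3. The groups did not overlap, although CMS 2 was only 3 above Control 3. Means were 20.7 ± 8.51 in CMS and 5.67 ± 3.22 in Control (SD, n = 3 each), a ratio of 3.65. Rounding alone allows ratios of 3.27 to 4.10. On the log2(value + 1) scale, the difference was 1.76 ± 0.54 (SE), with a 95% interval of 0.43 to 3.09, and its limma adjusted p was 0.13. Such intervals and the limma p-values rest on the spread between the rats of a group, estimated with the help of all tested miRNAs.

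The neighbouring miR-200a-3p, which carries the other seed of the family, was at 22, 8 and 22 in CMS, against 11, 4 and 6 in Control. CMS 2 was below Control 1, so the groups overlapped. Its mean was 17.3 ± 8.08 in CMS and 7.0 ± 3.61 in Control, a ratio of 2.48, with a log2 difference of 1.17 (95% interval -0.06 to 2.40, limma adjusted p = 0.223). The third miRNA of the cluster, miR-429, which shares the seed letters of miR-200b, was barely present, at 2, 0 and 1 in CMS and 1, 0 and 1 in Control. Its log2 difference was 0.20 (95% interval -1.02 to 1.41, limma adjusted p = 0.856), too wide to read at this level.

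From the chromosome 4 pair, miR-200c-3p had values of 5, 4 and 3 in CMS and 2, 1 and 2 in Control. All CMS values were above all Control values, by as little as 1 unit of rounding. The means were 4.0 ± 1.0 in CMS and 1.67 ± 0.577 in Control, a ratio of 2.4, and rounding alone allows 1.62 to 3.86. The log2 difference was 0.91 ± 0.25 (SE), with a 95% interval of 0.29 to 1.53 and a limma adjusted p of 0.10. A predicted miRNA of the table, chr4_32863, held the same value as miR-200c-3p in all 6 libraries. Its name gives the same chromosome. Of 53 tested rows with a mean of 2 to 4, 7 shared all values with another such row, so equal values also occur at this level, and whether the same reads stand behind both was not tested. The cluster partner of miR-200c-3p, miR-141-3p, had a value of 1 in Control 3 and was blank elsewhere, and it was not tested.

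Minor arms were almost absent. The only one with a value was miR-200a-5p, at 1 in Control 1 and blank in the other libraries, and it was not tested either.

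Summed over its 3p arms, the miR-200 family was at 56, 23 and 50 in CMS 1, 2 and 3 and at 21, 7 and 18 in Control 1, 2 and 3. CMS 1 and CMS 3 stood well above the rest, while CMS 2 was 2 above Control 1. Sums averaged 43.0 ± 17.6 in CMS and 15.3 ± 7.37 in Control, a ratio of 2.80, which is a description of members chosen with earlier results known. In parts per 1000000 of a library's total, the sum lay between 9.74 and 76.1. In bulk tissue, more cells of a type and more RNA per cell cannot be told apart.

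By genomic cluster, the chromosome 5 sum was 51, 19 and 47 in CMS and 19, 6 and 15 in Control, with CMS 2 level with Control 1. The sum of miR-200c-3p and miR-141-3p was 5, 4 and 3 in CMS and 2, 1 and 3 in Control. There CMS 3 was level with Control 3. Grouped by seed, the members with the miR-200c seed letters summed to 34, 15 and 28 in CMS and 10, 3 and 11 in Control, without overlap. For the miR-141 seed letters, the sums were 22, 8 and 22 in CMS and 11, 4 and 7 in Control, with overlap. Together miR-200a-3p and miR-200b-3p made up 82.6% to 92.0% of the family's sum in CMS and 77.8% to 85.7% in Control. The balance within this pair varied: miR-200a-3p was 0.815, 0.727 and 0.917 times miR-200b-3p in CMS, against 1.57, 2.0 and 0.75 times in Control. Control 3 lay among the CMS libraries in this ratio, and the lowest denominator, in Control 2, was a value of 2.

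**Figure D2:**
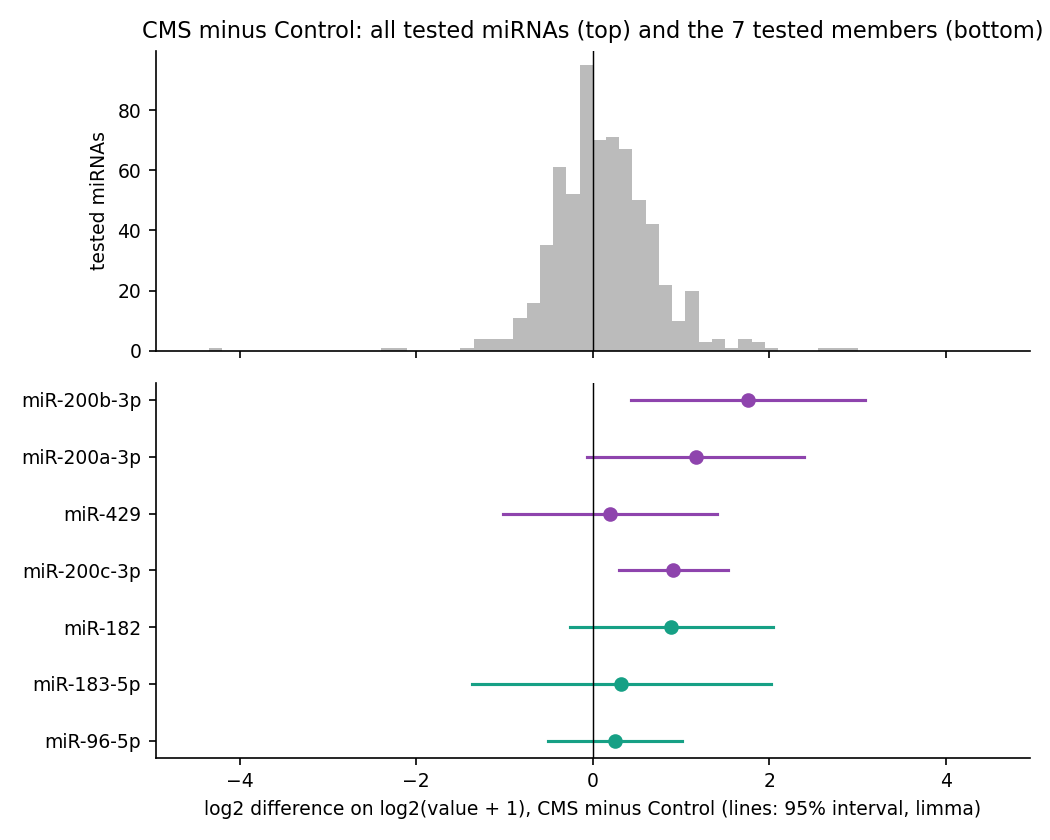
Log2 differences on log2(value + 1), CMS minus Control, as a histogram over all 657 tested miRNAs (top) and for the 7 tested members with 95% intervals from limma (bottom; miR-200 family in purple, miR-183 cluster in green). The intervals of miR-200b-3p and miR-200c-3p lie above 0 and those of the other members include 0.

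In the miR-183 cluster the groups overlapped for every member. The most abundant member, miR-182, was at 25, 15 and 17 in CMS and at 6, 7 and 20 in Control. Control 3 was within the CMS range, while Control 1 and Control 2 were below it. Its mean was 19 ± 5.29 in CMS and 11 ± 7.81 in Control, a ratio of 1.73, with a log2 difference of 0.89 (95% interval -0.26 to 2.04, limma adjusted p = 0.28).

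For miR-183-5p the values were 13, 7 and 7 in CMS and 7, 2 and 18 in Control, with the lowest and the highest library both in Control. Both group means were 9.0, with an SD of 3.46 in CMS and 8.19 in Control. The log2 difference of 0.32 had a 95% interval of -1.37 to 2.02 (limma adjusted p = 0.82), and it was -0.35 without Control 2. The third member, miR-96-5p, was at 2 in each CMS library and at 1, 1 and 3 in Control, with a log2 difference of 0.25 (95% interval -0.51 to 1.01, limma adjusted p = 0.649).

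The cluster's sum was 40, 24 and 26 in CMS and 14, 10 and 41 in Control. Control 3 was thus the highest of all libraries, next to CMS 1. The log2 ratio of the group means of this sum was 0.47. It was 1.32 without Control 3, which was singled out after its values were seen, and it was 0.13 without Control 2, 0.21 without CMS 1 and 0.23 without Control 1. For miR-182 the log2 difference was 1.39 without Control 3 and 0.59 without Control 1 (limma adjusted p = 0.0948 and 0.47). For miR-183-5p it was 0.98 without Control 3 (limma adjusted p = 0.441). Control 3 is the library whose RNA the labels name differently, and the part of that difference in its values was not tested.

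The proportions within the cluster differed by library. In CMS 1, 2 and 3, miR-183-5p was 0.52, 0.467 and 0.412 times miR-182, against 1.17, 0.286 and 0.9 times in Control 1, 2 and 3. The CMS ratios lay within the Control range. For miR-96-5p the ratio to miR-182 was lower throughout, at 0.08 to 0.133 in CMS and 0.143 to 0.167 in Control. These ratios rest on values of 1 to 3 for miR-96-5p.

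**Figure D3:**
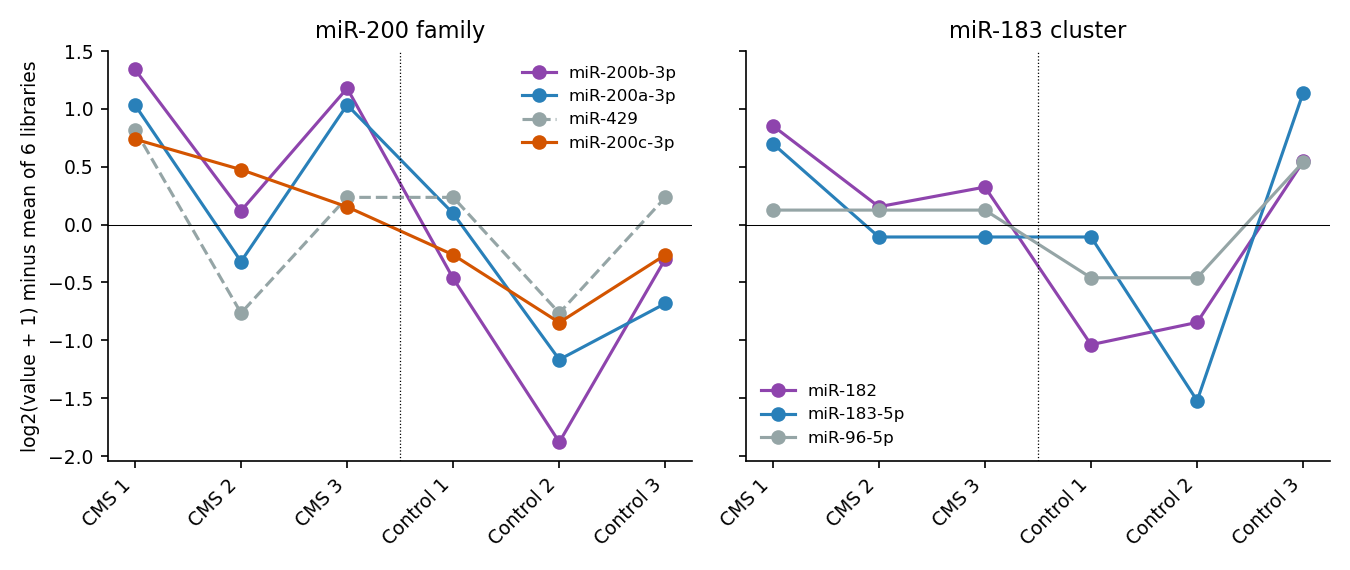
Level of each tested member in every library, as log2(value + 1) minus its mean over the 6 libraries, for the miR-200 family (left) and the miR-183 cluster (right); lines join the values of 1 member and carry no order of libraries. Control 2 is the lowest library for miR-200a-3p, miR-200b-3p, miR-200c-3p and miR-183-5p, and Control 3 is above average for the miR-183 cluster and below average for miR-200a-3p, miR-200b-3p and miR-200c-3p.

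Covariation of the members was described over the 6 libraries, on log2(value + 1), for all 21 pairs of the 7 tested members. No pair passed after Benjamini-Hochberg adjustment over the 21, and 3 had a Pearson p under 0.05 in exact two-sided permutation tests. The 6 pairs from within a cluster had Pearson r between 0.68 and 0.92 (median 0.77), and the 15 pairs from different clusters had r between 0.19 and 0.89 (median 0.54). The members of a pair share libraries and normalization, and all r rest on the same rats. The permutations ran over all 6 libraries together, so their p-values also take in any difference between the groups. Whether pairs within clusters correlate more than other pairs was not tested.

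In the chromosome 5 cluster, miR-200a-3p and miR-200b-3p had r = 0.92 (exact permutation p = 0.0111, adjusted p = 0.233) and Spearman rho = 0.81 (exact permutation p = 0.0722, adjusted p = 0.299). Without CMS 1 and CMS 3, the 2 libraries farthest from the median of miR-200a-3p, r was 0.72. The values moved together within groups too, with r = 0.83 for the deviations from the group means. For miR-429, r was 0.73 with miR-200a-3p (exact permutation p = 0.117, adjusted p = 0.245) and 0.68 with miR-200b-3p (exact permutation p = 0.15, adjusted p = 0.286), with rho of 0.72 and 0.62 (exact permutation p = 0.10 and 0.233, adjusted p = 0.299 and 0.408). The r with miR-200b-3p was 0.01 without CMS 1 and Control 2, so the pooled r depends on those libraries. In the rest, miR-429 was only at 0 or 1, too narrow a range for r to be read. The r of miR-429 with miR-200a-3p was 0.48 without CMS 1 and CMS 3, again with miR-429 only at 0 or 1.

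In the miR-183 cluster, r was 0.89 for miR-182 and miR-96-5p (exact permutation p = 0.0333, adjusted p = 0.233), with rho = 0.80 (exact permutation p = 0.0667, adjusted p = 0.299). It was 0.17 without Control 1 and Control 2, so the pooled r depends on those libraries. In the rest, miR-96-5p was only at 2 or 3, too narrow a range for r to be read. For miR-183-5p and miR-96-5p, r was 0.80 and rho 0.82 (exact permutation p = 0.0667 for each, adjusted p = 0.245 and 0.299), and r was 0.33 without Control 2 and Control 3. Without these libraries miR-96-5p was only at 1 or 2, again too narrow a range. For miR-182 and miR-183-5p, r was 0.73 and rho 0.76 (exact permutation p = 0.0833 for each, adjusted p = 0.245 and 0.299), and r was 0.72 without Control 1 and Control 2. Deviations from the group means correlated at 0.80 to 0.94 in the 6 within-cluster pairs and at -0.08 to 0.82 in the other 15, with a median of 0.86 and 0.46. Since miR-96-5p was at 2 in each CMS library, its deviations came from Control alone. Those of miR-429 came from values of 0 to 2. The medians are therefore a description and no comparison of clusters.

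Across clusters, the pair with the highest pooled r was miR-200b-3p and miR-200c-3p, which are encoded on different chromosomes and share their seed letters. Their r was 0.89 (exact permutation p = 0.0278, adjusted p = 0.233) and their rho 0.93 (exact permutation p = 0.0167, adjusted p = 0.299), and r was 0.53 without CMS 1 and Control 2. For deviations from the group means their r was 0.62, below the 0.82 of miR-183-5p with miR-200b-3p and the 0.81 of miR-183-5p with miR-200c-3p. Beyond the shared seed letters, miR-200c-3p and the Mir200b hairpin, as printed above, also have nearly the same letters. Whether reads of either miRNA were assigned to the other was not tested. Between the families, miR-200a-3p and miR-96-5p had the lowest r of all, at 0.19 (rho = 0.13, exact permutation p = 0.667 and 0.833, adjusted p = 0.667 and 0.833), and r was -0.06 without CMS 1 and CMS 3.

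**Figure D4:**
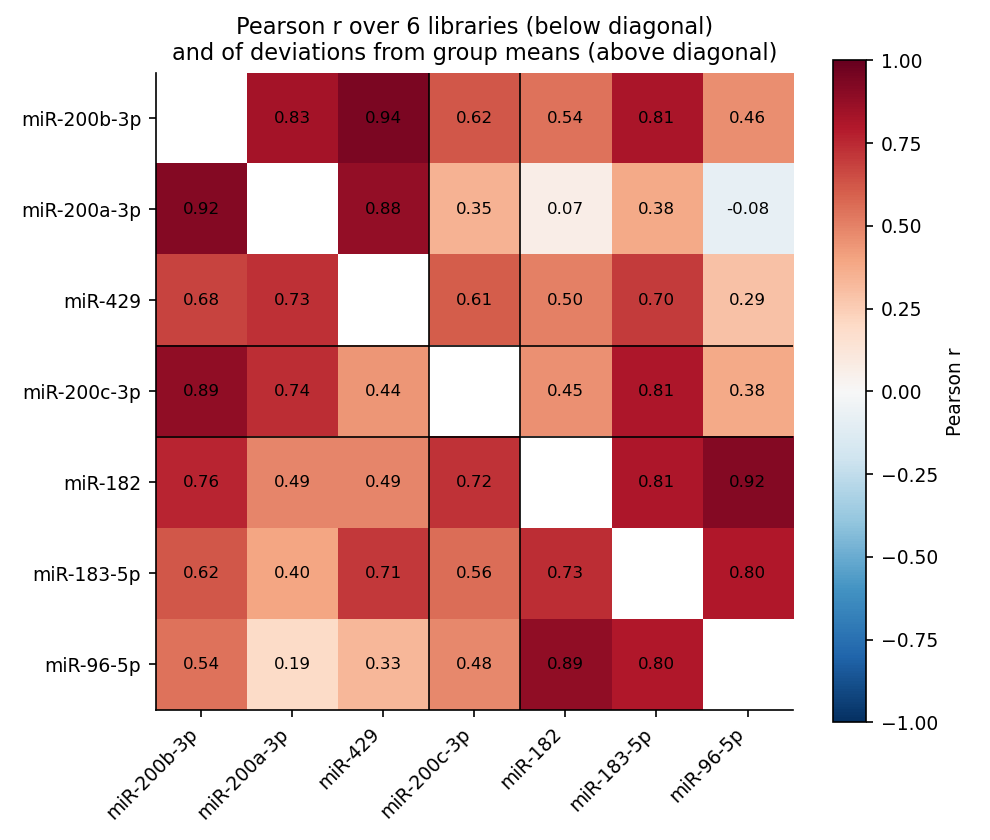
Pearson r of log2(value + 1) between members over the 6 libraries (below the diagonal) and of their deviations from the group means (above it), with lines between the 3 genomic clusters. The pair miR-200a-3p and miR-200b-3p has the highest pooled r, 0.92, and miR-200b-3p and miR-429 the highest r of deviations, 0.94. The values of miR-429 span only 0 to 2.

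Among 344 other annotated miRNAs with a mean of at least 10, those whose profile over the 6 libraries was most like the mean of miR-200a-3p, miR-200b-3p, miR-200c-3p and miR-429 were miR-667-3p (r = 0.96), miR-299a-5p (0.95), let-7e-3p (0.94), miR-325-3p (0.94) and miR-138-1-3p (0.93), given as a description. In CMS 1, 2 and 3, miR-667-3p was at 98, 75 and 108, against 79, 51 and 67 in Control. Its likeness to the family is what it was chosen for. None of these 5 passed (limma adjusted p between 0.142 and 0.335).

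The label epithelial was set against miRNAs of epithelia and other cells that a cortical dissection could hold. Of 4 choroid plexus rows (miR-204 and miR-211), 3 had a value and miR-211-3p had none in any library. Their sums were 680 to 1264 in CMS and 666 to 1440 in Control, and CMS 1, the library with the most miR-200 (56), had 680, next to the lowest. Ciliated cell miRNAs (miR-34b, miR-34c, miR-449a and miR-449c) summed to 371 to 724 in CMS and 493 to 679 in Control, with values in 6 of 8 rows. Of these rows, miR-449a-3p and miR-449c-3p had no value in any library. CMS 1 was the lowest of all libraries in this sum. Neither sum therefore had its order of libraries in common with the miR-200 family. These sums follow mostly miR-204-5p and miR-34c-5p, which averaged 930 and 468. Scarcer ciliated rows, picked from their values, differed. CMS 1 was the highest library for miR-34b-3p (16, 14 and 14 in CMS, 13, 6 and 7 in Control). It was the lowest for miR-449a-5p (3, 16 and 10 in CMS, 18, 18 and 20 in Control).

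Other epithelial miRNAs had values in 9 of 15 rows and summed to 489 to 767 in CMS and 602 to 822 in Control. The minor arms of miR-203a, miR-203b, miR-375, miR-192 and miR-194 and the row of miR-31b had no value in any library. After miR-192-5p the most abundant of the list was miR-194-5p, at 100, 70 and 119 in CMS and 100, 139 and 114 in Control. Of the 9 tested, 3 had a positive log2 difference, with a median of -0.31, against a median of 0.08 over all tested. One of these 3 was the skin and mucosa miRNA miR-203a-3p, chosen after its values were seen, at 118, 71 and 106 in CMS 1, 2 and 3, against 68, 63 and 67 in Control. These groups did not overlap, and the difference did not pass (log2 difference 0.54, limma adjusted p = 0.199). The libraries of miR-203a-3p stood in the same order as those of the miR-200 family sum. The sum of its list did not, with CMS 3 at 767 above CMS 1 at 692. From this list 1 miRNA passed, miR-215, which fell in CMS to 1 in each library, against 5, 4 and 3 in Control (limma adjusted p = 0.0242). That call was lost without CMS 1, CMS 2, CMS 3 or Control 2 (limma adjusted p between 0.0795 and 0.121) and with the replicate number as a block (limma adjusted p = 0.105).

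Taken as one list of choroid plexus, ependyma and other epithelium, 17 miRNAs outside the members were tested, of which 0 rose and 1 fell (limma adjusted p under 0.05), with a median log2 difference of -0.09 against 0.08 over all tested. Groups did not overlap for 4 of them, 2 higher and 2 lower in CMS, against 25.9% of all tested (19.6% higher and 6.24% lower), which is no result about the list. A list of 13 tested miRNAs described as restraining epithelial-mesenchymal transition, such as miR-205 and miR-101a and in part shared with the list before, had none that passed, against 4.11% of all tested, and 1 whose groups did not overlap, higher in CMS, against 19.6% of all tested. Its median log2 difference was 0.16, and 9 of the 13 were positive, against 56.5% of all tested.

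Red blood cell miRNAs (miR-451, miR-144 and miR-486) had values in 4 of 5 rows, with none for miR-451-3p, and summed to 443, 260 and 328 in CMS and 200, 351 and 177 in Control. Endothelial miR-126a summed to 13667, 9152 and 10935 in CMS and 7906, 9926 and 9702 in Control, and miR-338 and miR-219a of oligodendrocytes to 3160, 1888 and 2213 in CMS and 2177, 1985 and 1932 in Control. All 3 sums had the same order of CMS libraries as the miR-200 family, with CMS 1 highest and CMS 2 lowest, and none had its order of Control libraries. The epithelial miR-203a-3p, given above, had the order of the miR-200 family in both groups. How many of all miRNAs have this order of CMS libraries was not counted. Of the 4 red blood cell rows tested, 1 had a positive log2 difference, and their median was -0.38, against 0.08 over all tested. The sums of muscle miRNAs (miR-1, miR-133a and miR-206) were 17 to 61 in CMS and 34 to 72 in Control. Myeloid miR-223 was near 0, at 1 to 3 in CMS and 0 to 2 in Control. The part of blood, vessels, oligodendrocytes or epithelium in the values of the members was not tested.

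**Figure D5:**
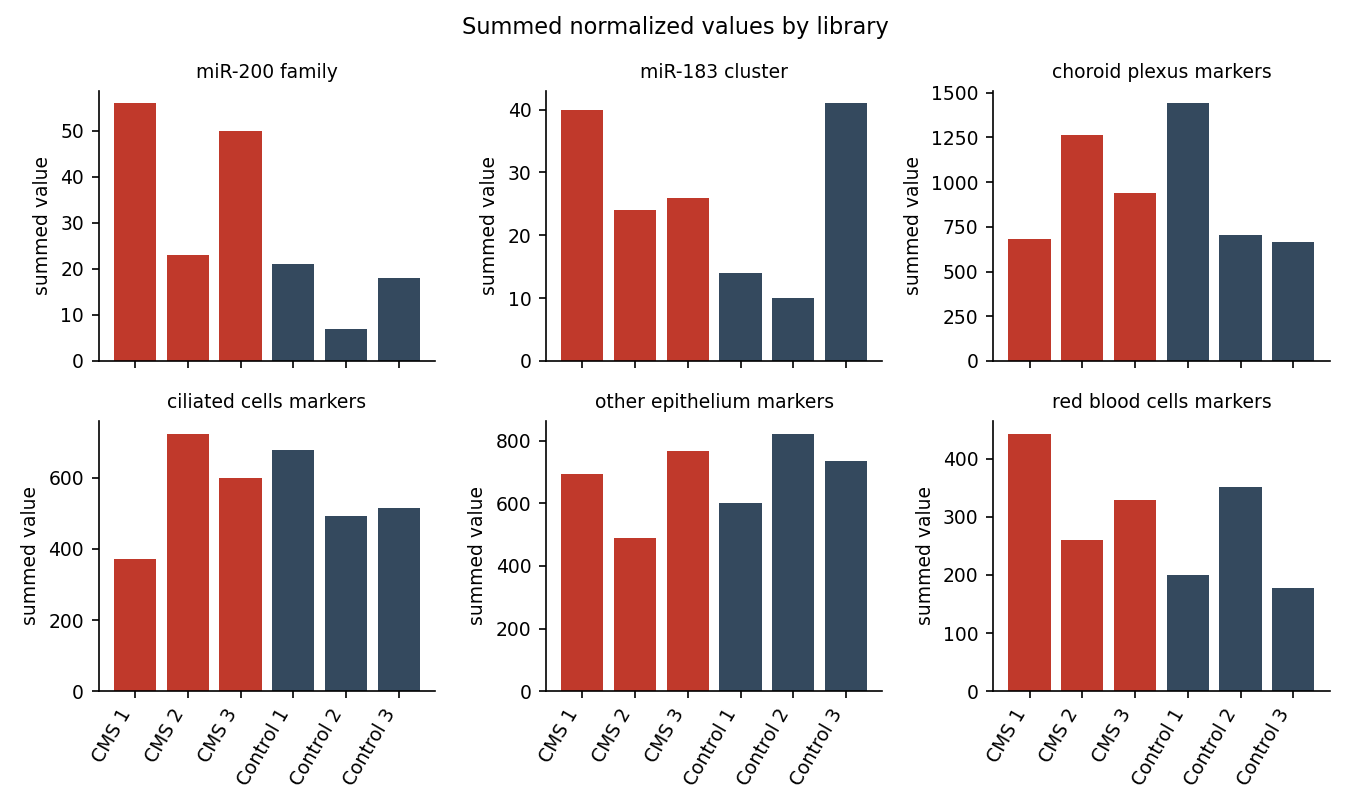
Summed normalized values (vertical axes from 0) in each CMS and Control library for the miR-200 family, the miR-183 cluster and 4 lists of cell type miRNAs. CMS 1 is the highest library for the miR-200 family, at 56, and the lowest for the ciliated cell list, at 371.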

How the data were processed

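Small RNA libraries from medial prefrontal cortex of 3 CMS and 3 Control rats were read on a NextSeq instrument, per the labels' protocols. Novoalign 2.07.11 is named in the submitters' processing notes. The sources used here name no genome build, annotation or normalization. The authors' deposited values are treated as a score, a normalized value that the authors rounded: they are whole numbers, but library sums differ by 3.72%, and for miRNAs with means of 1 to 8 the variance was 0.53 (CMS) and 0.471 (Control) times the mean. Depth is unknown. Blanks were taken as 0.

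The whole table was fitted with limma-trend (limma 3.58.1, R 4.3.3) on log2(value + 1) for the 657 miRNAs with at least 1 in at least 3 libraries, taking a Benjamini-Hochberg adjusted p under 0.05 as passing. The fit was tested on simulated data, with changes added only to miRNAs with a mean of at least 10. Recovery at the lower levels of miR-183-5p, miR-200c-3p, miR-96-5p and miR-429 was therefore not tested. Correlations were tested by exact permutation (720 pairings; smallest possible p 0.00139). Ratios are of group means, and their rounding limits assume rounding to the nearest whole number. Sequences and gene order are from RefSeq GRCr8. Members and lists were chosen with earlier results of these data known. Every member is named. Of other miRNAs, those named are the 5 with the most similar profile and at most 2 per marker list, and any other was picked from its values, as said beside it, or is the 1 that passed. Alternatives were 2 rescalings, filters, pseudocounts of 0.1 and 10, no trend, annotated miRNAs only, a replicate block and each library left out.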

Additional observations from a re-analysis of the deposited data

How the results depend on the processing

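No member passed under any alternative run, so the count of members called was 0 in each. Under alternatives, 98 values of the members' log2 differences kept their direction and side of the threshold, with limma adjusted p between 0.0596 and 0.981. The other 3 changed sign when a library was left out: miR-429 was at -0.17 without CMS 1 and -0.14 without Control 2 (range -0.17 to 0.63 over the libraries left out), and miR-183-5p was at -0.35 without Control 2 (range -0.35 to 0.98). The cause was not tested. For miR-200b-3p the adjusted p was between 0.0596 and 0.317 and for miR-200c-3p between 0.0822 and 0.239. Over all miRNAs, the 27 calls became 11 with annotated miRNAs only, where 468 were tested, and 2 to 55 with libraries left out, with the highest count without Control 1. The other filters, scalings and pseudocounts gave 18 to 40.

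Replicate numbers are shared by both groups, and nothing in the labels says that they mark pairs. Deviations from the group means had r of -0.11, -0.02 and -0.05 between libraries of equal number. With the replicate block 1 miRNA was called over all and 0 members. Quantile normalization and trimmed-mean rescaling shifted log2 differences by a median of -0.12 and -0.11, and the members' differences stayed positive in both. The log2 ratio of the summed miR-200 family was 1.49, 1.31 and 1.34 with these scalings, and 1.14 to 1.79 with libraries left out; that of the miR-183 cluster was 0.13 to 1.32. All 6 within-cluster correlations stayed positive and none passed under the scalings and pseudocounts tried. At values this low, rounding and unknown depth limit every comparison.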
